A study of Mus musculus with 24 samples.

Results

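A set of 8 genes of the machinery that fuses secretory vesicles with the plasma membrane were followed from mouse embryonic stem cells (ES) through neuronal progenitors (NP) to terminal neurons (TN), in cells with and without the transcriptional repressor REST. They are the SNARE genes Snap25, Stx1a, Vamp2 and Snap23, the complexins Cplx1 and Cplx2, and the priming factors Unc13a and Unc13b. They were given as a list of 8 names, and each was read on its probe set with a single gene symbol and the highest mean signal. The list was chosen with earlier results of these data known, so counts of members called beside the shares of all genes are descriptions. That rule found 7 of the 8 among 19938 genes on the platform with 18 arrays and 8 of 8 among 18194 genes on the platform with 6 arrays. Vamp2 was missing from the former, where its probe set is annotated to Ubr3 as well and was not used.

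In the RefSeq annotation of GRCm38.p6 the genes lie on 6 chromosomes. Snap25 spans chr2:136713439-136782428 and Snap23 spans chr2:120567655-120601255, so they share a chromosome. Stx1a (chr5:135023482-135051100) and Cplx1 (chr5:108518554-108550027) share chromosome 5, where Rest lies too. Vamp2 is at chr11:69088528-69092381, Cplx2 at chr13:54301964-54383923, Unc13a at chr8:71624125-71671774 and Unc13b at chr4:43046193-43264873.

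The 18 arrays hold cells of the strain Black Agouti 129 in 6 groups of 3: ES and NP labelled RESTko (REST knock-out) or RESTwt (wildtype), and TN labelled RESTko or RESThet (heterozygous knock-out). The other 6 come from wildtype cells whose strain is labelled as mixed 129Sv-C57Bl/6, with 2 per stage. Total RNA was hybridized to Affymetrix arrays, and all values below are log2 signals of a probe set, so a difference of 1 is a factor of 2. The neuron controls carry a REST deletion on 1 allele, whereas the controls at ES and NP carry none, and how many ES clones stand behind a genotype is not stated in the labels. Replicates, lettered a to c, are called biological, but nothing says that they came from separate cultures, so p-values measure only the spread between these arrays, and the small number of arrays limits their precision.

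Fusion of a synaptic vesicle is driven by SNARE proteins, in which a vesicle SNARE (Vamp2) zips together with the plasma membrane SNAREs syntaxin-1 (Stx1a) and SNAP-25 (Snap25). Munc13 proteins (Unc13a, Unc13b) open syntaxin and prime vesicles, complexins (Cplx1, Cplx2) bind the assembled complex and tune its calcium-triggered release, and SNAP-23 (Snap23) serves constitutive and regulated secretion outside neurons. REST is a zinc finger repressor that binds an element called RE1 near many neuronal genes and is abundant in stem cells and non-neuronal cells.

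Promoter sequences are shown because REST acts through DNA and the members differ in what their start regions contain. The RefSeq promoter table (GRCm38.p6; 32851 windows of 300 bases, from 250 before to 50 after a gene start) held windows for 6 of the 8 genes, the exceptions being Snap25 and Vamp2. Both strands were searched for the RE1 parts CAGCACC and GGACAG, for the pair of them in the same orientation with at most 12 bases between, for the E box CAGCTG and for the GC box GGGCGG. Among the 6 windows only that of Unc13a held the pair. The 2 parts lie 8 bases apart on the strand opposite to the gene, at chr8:71671729-71671749, which is 9 to 29 bases after the table's start and inside the annotated gene. In the line below, capitals mark the 2 RE1 parts.
Unc13a RE1-like pair: CAGCACCgggggcgcGGACAG
The pair was found in 37 of the 32851 windows (0.113%), and with the 2 bases of the usual RE1 spacing in 12 (0.0365%). CAGCACC alone was in 7.14% of windows and GGACAG in 22.2%. A match of letters is a description and not a measured binding site. Only exact letters within 300 bases per gene were searched, so a window without the pair does not show that a gene lacks an RE1. The windows of Unc13b (from chr4:43058703) and Cplx2 (from chr13:54302306) lie inside the annotated spans of these genes.

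The 250 bases before the start of the 3 genes whose signals differed most clearly between genotypes and that the table holds are given next, with every CAGCTG and GGGCGG on either strand in capitals. They lie at chr8:71671758-71672007 (minus strand) for Unc13a, chr5:108550028-108550277 (minus strand) for Cplx1 and chr5:135023232-135023481 (plus strand) for Stx1a.
Unc13a: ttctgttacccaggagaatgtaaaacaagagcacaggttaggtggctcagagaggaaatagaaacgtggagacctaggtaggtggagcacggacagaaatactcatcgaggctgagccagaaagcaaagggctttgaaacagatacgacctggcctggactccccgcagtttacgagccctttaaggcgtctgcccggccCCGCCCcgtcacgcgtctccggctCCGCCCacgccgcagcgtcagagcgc
Cplx1: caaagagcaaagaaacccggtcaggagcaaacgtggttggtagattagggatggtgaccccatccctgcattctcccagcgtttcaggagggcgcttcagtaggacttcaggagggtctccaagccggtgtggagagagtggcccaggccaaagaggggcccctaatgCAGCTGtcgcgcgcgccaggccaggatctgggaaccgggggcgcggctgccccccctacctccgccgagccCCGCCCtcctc
Stx1a: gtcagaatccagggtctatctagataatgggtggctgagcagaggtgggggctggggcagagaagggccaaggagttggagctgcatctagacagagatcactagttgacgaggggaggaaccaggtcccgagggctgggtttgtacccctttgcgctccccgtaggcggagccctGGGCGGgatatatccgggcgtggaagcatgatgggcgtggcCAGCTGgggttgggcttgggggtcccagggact
An E box stands 82 bases before the start of Cplx1 and 33 bases before that of Stx1a, and CAGCTG was in 16.3% of all windows. GC boxes stand before the start of all 3, and GGGCGG was in 35.7% of all windows.

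The probe set of Rest itself was read first, as a check of the genotype labels. At ES it read 8.63, 8.53 and 8.66 on arrays labelled RESTko and 8.95, 8.99 and 8.95 on those labelled RESTwt (difference -0.36, SE 0.07, limma adjusted p = 0.00234), with no overlap. At NP the groups overlapped (difference -0.01, limma adjusted p = 0.958), and at TN Rest was higher on the arrays labelled RESTko than on those labelled RESThet (difference 0.34, limma adjusted p = 0.0187). The labels do not say where in Rest the deletion lies, so this probe set may lie outside it and then checks nothing. The genotypes below are therefore those of the labels. Stage markers moved with the stage labels: all 8 ES markers fell and all 7 progenitor markers rose from ES to NP in both genotypes, and all 8 neuron markers rose from NP to TN. The mean of the ES markers was still 6.43 to 7.73 at NP and 5.54 to 6.97 at TN on the 18 arrays, against 10.8 to 11.06 at ES. Bulk RNA was measured, so fewer cells of a type and less RNA per cell cannot be told apart. Among the 18 arrays, the titles of TN carry another leading number than those of ES and NP. What it marks is not stated, and it cannot be told apart from the step to neurons.

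In ES labelled RESTko, 4 of the 7 measured genes were higher than in RESTwt: Snap25, Unc13a, Cplx1 and Stx1a, by 4.39, 4.35, 3.22 and 1.61-fold. In NP the same comparison called 6 of 7, adding Cplx2 and Unc13b, with Cplx1 the most changed at 5.30-fold. For Cplx2 and Unc13b the change in the genotype difference from ES to NP was itself not called. In TN, where the control was RESThet, 0 of the 7 were called by limma, and 0 had an unadjusted p under 0.05. Snap23 was called in no comparison of genotypes. Calls are limma adjusted p under 0.05 by a two-sided moderated test over all 19938 genes, by which 5.19% of genes were called higher at ES, 4.32% at NP, and 1.16% in either direction at TN. The median difference of the 7 genes was 0.69 at ES, 0.59 at NP and 0.01 at TN, beside -0.03, 0.01 and -0.02 over all genes.

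**Figure D1:**
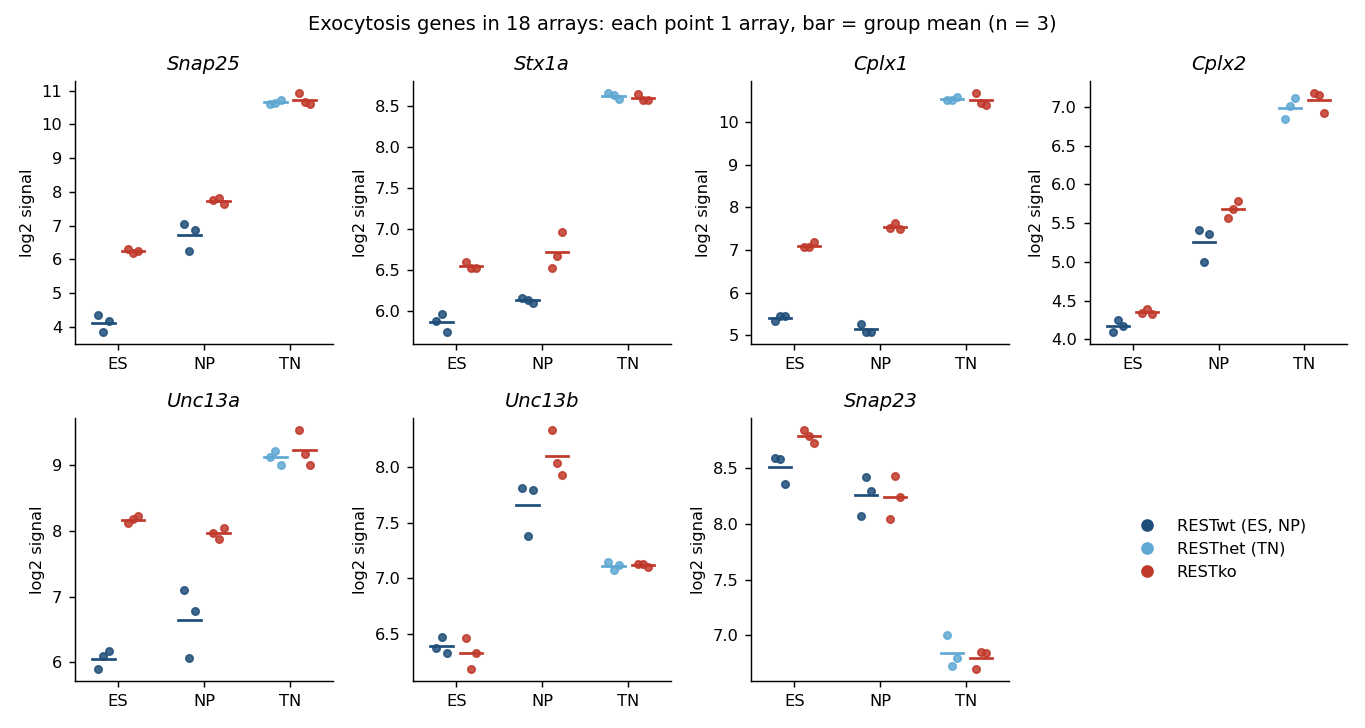
Log2 signal (vertical axis) of each of the 7 genes at ES, NP and TN on the 18 arrays; each point is an array, coloured by its genotype label, and bars mark group means (n = 3). Snap25, Stx1a, Cplx1 and Unc13a lie higher in RESTko at ES and NP, and the groups overlap at TN for all 7 genes.

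Snap25, the plasma membrane SNARE that contributes a pair of helices to the complex, was lowest in RESTwt ES cells. There it read 4.36, 3.84 and 4.16, against 6.31, 6.19 and 6.26 in RESTko ES. Every RESTko array was brighter than every RESTwt array, and the difference was 2.13 (SE 0.16, limma adjusted p = 9.26e-08). In NP it read 7.04, 6.24 and 6.87 in RESTwt and 7.75, 7.82 and 7.65 in RESTko (difference 1.02, SE 0.16, limma adjusted p = 0.000484), again with no overlap. In TN it read 10.61, 10.62 and 10.72 in RESThet and 10.93, 10.67 and 10.60 in RESTko, which overlapped (difference 0.08, 95% interval -0.25 to 0.42, limma adjusted p = 0.908). Ordered by mean, the groups ran from RESTwt ES (4.12 ± 0.26, SD, n = 3) through RESTko ES (6.25 ± 0.06), RESTwt NP (6.71 ± 0.42) and RESTko NP (7.74 ± 0.09) to the neurons (10.65 ± 0.06 in RESThet and 10.73 ± 0.17 in RESTko). RESTko ES cells and RESTwt progenitors overlapped, as did the neuron groups.

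Stx1a, the neuronal syntaxin, was higher in RESTko at ES and NP. It read 5.88, 5.96 and 5.74 in RESTwt ES and 6.60, 6.52 and 6.53 in RESTko ES (difference 0.69, SE 0.09, limma adjusted p = 6.25e-05). In NP it read 6.16, 6.13 and 6.10 in RESTwt and 6.52, 6.67 and 6.96 in RESTko (difference 0.59, SE 0.09, limma adjusted p = 0.000438). At neither stage did the genotypes overlap. In TN the 6 arrays lay between 8.57 and 8.66 and overlapped (difference -0.03, 95% interval -0.21 to 0.16, limma adjusted p = 0.959). The order of means was RESTwt ES (5.86 ± 0.11, SD, n = 3), RESTwt NP (6.13 ± 0.03), RESTko ES (6.55 ± 0.04), RESTko NP (6.72 ± 0.22) and the neurons (8.6 ± 0.04 in RESTko and 8.63 ± 0.03 in RESThet). RESTko ES and RESTko NP overlapped, and so did the neurons.

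Cplx1, the complexin of many fast synapses, was the member whose genotype difference was largest in progenitors. It read 5.34, 5.45 and 5.45 in RESTwt ES and 7.06, 7.06 and 7.18 in RESTko ES (difference 1.69, SE 0.08, limma adjusted p = 4.29e-10). In NP it read 5.27, 5.07 and 5.08 in RESTwt and 7.52, 7.63 and 7.48 in RESTko (difference 2.41, SE 0.08, limma adjusted p = 6.27e-12). The 2 genotypes stood more than a unit apart on every array at both stages. In TN the values were 10.51, 10.52 and 10.58 in RESThet and 10.68, 10.44 and 10.41 in RESTko, and the groups overlapped (difference -0.02, 95% interval -0.20 to 0.15, limma adjusted p = 0.955). By mean, RESTwt NP was lowest (5.14 ± 0.11, SD, n = 3), then RESTwt ES (5.41 ± 0.06), RESTko ES (7.10 ± 0.07), RESTko NP (7.55 ± 0.08) and the neurons (10.51 ± 0.15 in RESTko and 10.54 ± 0.04 in RESThet). Only the neuron groups overlapped with their neighbour in this order.

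Cplx2, a complexin that binds the same assembled complex, was called at NP and not at ES. It read 4.09, 4.25 and 4.17 in RESTwt ES and 4.34, 4.39 and 4.32 in RESTko ES, which did not overlap but were not called (difference 0.18, SE 0.11, limma adjusted p = 0.367). In NP it read 5.41, 5.0 and 5.36 in RESTwt and 5.56, 5.68 and 5.79 in RESTko (difference 0.42, SE 0.11, limma adjusted p = 0.0205). That call was lost without array b of NP RESTwt (difference 0.29, limma adjusted p = 0.132), without array b of NP RESTko (limma adjusted p = 0.055) and without array c of NP RESTko (limma adjusted p = 0.0845), and with only the NP arrays in the fit (limma adjusted p = 0.13). In TN it read 6.84, 7.01 and 7.12 in RESThet and 7.18, 7.15 and 6.92 in RESTko, with overlap (difference 0.10, 95% interval -0.13 to 0.32). Its means rose in stage order, from 4.17 ± 0.08 (SD, n = 3) in RESTwt ES to 6.99 ± 0.14 in RESThet and 7.08 ± 0.14 in RESTko neurons, and only the neurons overlapped with a neighbour.

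Unc13a, which encodes the Munc13-1 priming factor, was higher in RESTko at ES and NP. It read 5.90, 6.09 and 6.17 in RESTwt ES and 8.12, 8.18 and 8.22 in RESTko ES (difference 2.12, SE 0.18, limma adjusted p = 6.29e-07), with no overlap. In NP it read 7.10, 6.06 and 6.78 in RESTwt and 7.97, 7.88 and 8.05 in RESTko (difference 1.32, SE 0.18, limma adjusted p = 0.000201). Array b of RESTwt NP was the lowest of these, and the groups stayed apart. In TN it read 9.13, 9.22 and 9.01 in RESThet and 9.54, 9.17 and 9.0 in RESTko, with overlap (difference 0.12, 95% interval -0.27 to 0.50). RESTwt ES (6.05 ± 0.14, SD, n = 3) and RESTwt NP (6.64 ± 0.53) overlapped, RESTko NP (7.97 ± 0.09) lay below RESTko ES (8.17 ± 0.05) without overlap but was not called (-0.21, limma adjusted p = 0.33), and the neurons (9.12 ± 0.11 and 9.24 ± 0.28) overlapped. Of the 2 dimmer probe sets of Unc13a, one also was higher in RESTko ES (difference 0.96, limma adjusted p = 0.00408) and the other was not called (0.10, limma adjusted p = 0.655). Unc13a lies on chromosome 8, whose 961 genes had a median genotype difference of -0.17 at ES, -0.18 at NP and -0.04 at TN. From NP to TN the median change of these genes was 0.17. At ES and NP the difference of Unc13a is opposite in sign to that of its chromosome.

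Unc13b, which encodes Munc13-2, did not differ at ES, where the groups overlapped at 6.37, 6.47 and 6.32 in RESTwt and 6.46, 6.18 and 6.32 in RESTko (difference -0.07, 95% interval -0.31 to 0.18, limma adjusted p = 0.814). In NP it read 7.81, 7.38 and 7.80 in RESTwt and 8.34, 8.04 and 7.93 in RESTko (difference 0.44, SE 0.11, limma adjusted p = 0.0234). That call was lost without array a of NP RESTko (limma adjusted p = 0.151) and without array b of NP RESTwt (limma adjusted p = 0.149), with array weights (limma adjusted p = 0.0705) and with only the NP arrays in the fit (limma adjusted p = 0.181). In TN the 6 arrays lay between 7.07 and 7.15. Unlike the genes above, Unc13b was highest in progenitors of both genotypes (7.66 ± 0.25, SD, n = 3, in RESTwt and 8.10 ± 0.21 in RESTko).

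Snap23, the SNAP-25 relative of non-neuronal secretion, moved the other way along the stages. It lay at 8.35 to 8.59 in RESTwt ES and 8.72 to 8.84 in RESTko ES, a gap that was not called (difference 0.28, SE 0.11, limma adjusted p = 0.14) except with array weights (limma adjusted p = 0.0465). In NP it lay at 8.07 to 8.42 in RESTwt and 8.04 to 8.43 in RESTko, and in TN at 6.73 to 7.0 in RESThet and 6.70 to 6.85 in RESTko. At NP and TN the genotypes overlapped, and RESTwt NP overlapped RESTwt ES.

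Counted by arrays, 6 of 7 genes had all RESTko arrays above all RESTwt arrays at ES, where 14.4% of all genes did, and 6 of 7 at NP, where 12.8% did. At TN 0 of 7 had all RESTko arrays above all RESThet arrays, where 5.83% of all genes did. The exceptions were Unc13b at ES and Snap23 at NP.

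**Figure D2:**
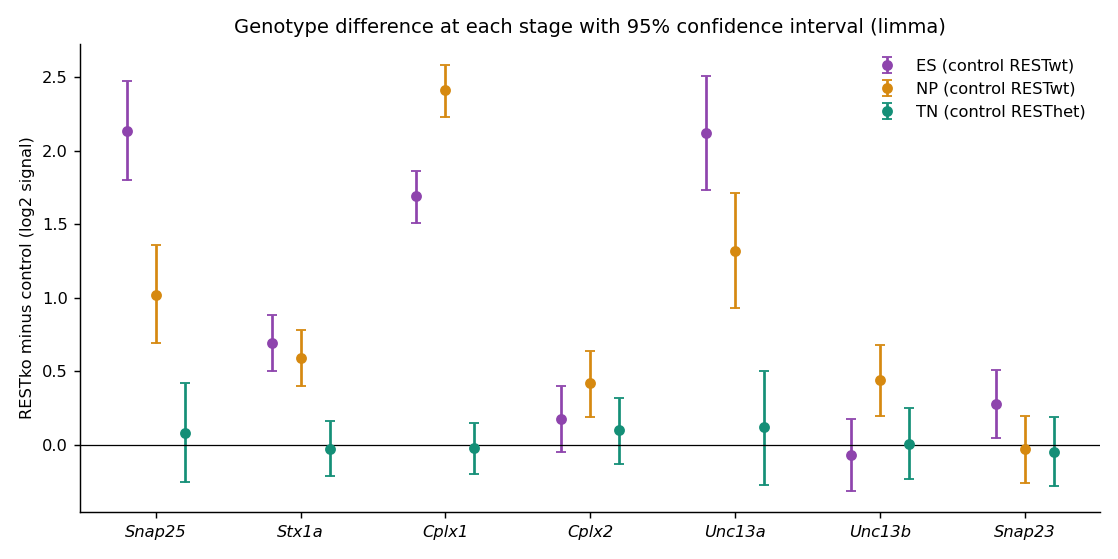
Difference in log2 signal between arrays labelled RESTko and their controls (vertical axis) for each gene at ES, NP and TN, with its 95% interval from limma. The Cplx1 difference is 1.69 at ES, 2.41 at NP and -0.02 at TN.

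Some cell type markers also differed between genotypes at ES and NP, and a few at TN. Of 8 neuron markers, 4 were called higher in RESTko at ES and 5 at NP, and their mean was 5.68 to 5.84 in RESTko ES against 5.33 to 5.42 in RESTwt ES, and 7.91 to 8.34 against 7.23 to 7.86 at NP. The lowest of those NP values, 7.23, was array b of RESTwt, the array with the lowest Snap25, Cplx2, Unc13a and Unc13b in its group. It was also the lowest for Cplx1, though by little (5.07 against 5.08 on array c). Of 7 endocrine and chromaffin markers, 2 were called higher at ES and 5 at NP, where their mean was 5.90 to 5.96 in RESTko and 4.56 to 4.89 in RESTwt. Of 8 fibroblast and mesoderm markers, 4 were called lower in RESTko at NP (mean 5.44 to 6.01 against 6.12 to 6.57), whereas 2 were called higher at ES (Tagln, 7.7 against 6.22, and Acta2, 7.96 against 6.77). Of 7 neural progenitor markers, 2 were called higher at ES and 0 at NP. Of 8 endoderm markers, 1 was called higher at each stage, and of 8 ES markers 1 was called lower at ES. Of 7 astrocyte and oligodendrocyte markers, 0 were called at either stage. Over all genes 5.19% were called higher and 4.05% lower at ES, and 4.32% and 3.71% at NP. At TN 1 neuron, 1 neural progenitor and 1 astrocyte and oligodendrocyte marker were called lower in RESTko than in RESThet. There 1 endoderm and 1 endocrine and chromaffin marker were called higher, and 1.16% of all genes were called in either direction. The neuron marker mean at TN was 10.12 to 10.18 in RESTko and 10.19 to 10.39 in RESThet. The part of these markers in the results of the members was not tested. Without array b of RESTwt NP, Cplx1 (2.37), Unc13a (1.03), Snap25 (0.79) and Stx1a (0.59) were still called at NP, and 4 members in all.

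The size of the genotype difference changed with stage for several members. From ES to NP it grew for Cplx1 by 0.72 (SE 0.12, limma adjusted p = 0.00137) and shrank for Snap25 (change -1.11, SE 0.22, limma adjusted p = 0.00678), so 2 of 7 members were called where 4.87% of all genes were. Unc13a had a change of -0.80 (limma adjusted p = 0.0953), which was called without array b of RESTwt NP (-1.09, limma adjusted p = 0.0024). The 2 dimmer probe sets of Unc13a did not show it (0.02 and 0.01, limma adjusted p = 0.987 and 0.983). Cplx2 (0.24, limma adjusted p = 0.465) and Unc13b (0.51, limma adjusted p = 0.0899) had no called change, although each was called at NP and not at ES. From NP to TN the difference shrank for 4 of 7, where 2.51% of all genes were called lower: Cplx1 (-2.43, limma adjusted p = 9.4e-10), Unc13a (-1.21, limma adjusted p = 0.0135), Snap25 (-0.94, limma adjusted p = 0.0247) and Stx1a (-0.61, limma adjusted p = 0.0106). The Snap25 call was lost in 5 of 12 fits that each left out an array, with limma adjusted p from 0.0514 to 0.0652, the arrays being a and b of NP RESTko, c of TN RESThet and b and c of TN RESTko. The Unc13a call was lost when its 3 probe sets were averaged (-0.64, limma adjusted p = 0.115), and both calls were lost with only the arrays compared in the fit (limma adjusted p = 0.0528 for Snap25 and 0.0535 for Unc13a). The comparison from NP to TN also changes the control, from RESTwt to RESThet, and the leading number of the array titles. These cannot be told apart from the stage.

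From NP to TN, Snap25, Stx1a, Cplx1, Cplx2 and Unc13a rose whichever genotype was read. From RESTwt NP to RESThet TN, a step in which stage and genotype both differ, 7 of 7 members were called where 73.1% of all genes were. Cplx1 rose by 5.40 (42.1-fold), Snap25 by 3.93 (15.3-fold), Stx1a by 2.5 (5.66-fold), Unc13a by 2.48 (5.57-fold) and Cplx2 by 1.73 (3.32-fold). Snap23 fell by 1.42 and Unc13b fell by 0.55. Markers of other cells moved in the same step: 6 of 8 fibroblast and mesoderm markers rose and 2 fell (median 2.56; Dcn from 5.8 to 10.35 and Postn from 4.13 to 9.61), and 6 of 7 astrocyte and oligodendrocyte markers rose and 1 fell (median 0.98). The mean of the fibroblast and mesoderm markers was 6.12 to 6.57 in RESTwt NP and 8.09 to 8.48 in RESThet TN, and that of the glial markers 4.68 to 4.76 and 5.86 to 6.19. Their part in the steps of the members was not tested. From RESTko NP to RESTko TN 7 of 7 were again called, against 71.0% of all genes, with fibroblast and mesoderm markers again 6 of 8 higher (median 2.98). In that step Snap25 was 2.99, Cplx1 2.97, Stx1a 1.89, Cplx2 1.41 and Unc13a 1.27 higher, and Snap23 1.44 and Unc13b 0.98 lower in log2 units (differences -1.44 and -0.98).

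From ES to NP the members went different ways. In RESTwt 6 of 7 were called, where 67.1% of all genes were: Snap25 rose by 2.60, Unc13b by 1.27, Cplx2 by 1.09, Unc13a by 0.59 and Stx1a by 0.27, and Cplx1 fell by 0.27. The Stx1a value turned to -0.08 after quantile normalization of the arrays and to -0.07 after centring them, and the Unc13a rise was not called under either (limma adjusted p = 0.225 and 0.195), nor over the mean of its probe sets (limma adjusted p = 0.22) or without array a of NP (limma adjusted p = 0.0713). Without array c of ES the Stx1a rise was not called (limma adjusted p = 0.0719). Snap23 (-0.24, limma adjusted p = 0.0582) was called after centring (-0.58, limma adjusted p = 0.000112) and, at -0.24 to -0.32, under 4 other settings (limma adjusted p from 0.023 to 0.0453). In RESTko 5 of 7 were called, where 66.0% of all genes were: Unc13b rose by 1.78, Snap25 by 1.49, Cplx2 by 1.33 and Cplx1 by 0.44, and Snap23 fell by 0.55. The Cplx1 rise was 0.10 and not called (limma adjusted p = 0.30) after centring. Stx1a (0.17) and Unc13a (-0.21) were not called in RESTko, although Unc13a was called after centring (-0.55, limma adjusted p = 0.00782) and with only the arrays compared (limma adjusted p = 0.037). Stx1a was called with array weights (0.21, limma adjusted p = 0.038) and without array a of NP RESTko (0.27, limma adjusted p = 0.0152). Markers of other cells moved in this step too. In RESTwt 8 of 8 endoderm markers rose (median 1.58), as did 8 of 8 fibroblast and mesoderm markers (median 1.26). Of 8 neuron markers 6 rose and 1 fell (median 2.44), and of 7 astrocyte and oligodendrocyte markers 4 fell. In RESTko 8 of 8 endoderm markers rose, fibroblast and mesoderm markers went 6 up and 2 down, and neuron markers 6 up and 1 down. What part the markers had in these steps was not tested.

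The mixed-strain wildtype cells gave the course of all 8 genes, Vamp2 included, on their own platform. Vamp2, the vesicle SNARE of synaptic vesicles, read 4.96 and 4.95 at ES, 5.76 and 5.47 at NP and 9.07 and 9.25 at TN. It rose by 0.66 from ES to NP (SE 0.15, limma adjusted p = 0.00662; not called without array a of NP, limma adjusted p = 0.0543) and by 3.54 from NP to TN (11.7-fold, SE 0.15, limma adjusted p = 1.74e-07). Snap25 read 2.69 and 3.01, then 4.94 and 4.85, then 10.54 and 10.57, a final step of 5.66 (50.5-fold, SE 0.15, limma adjusted p = 3.19e-08). Its second, dimmer probe set did not follow (NP to TN 0.27, limma adjusted p = 0.25). From NP to TN, 7 of 8 were called, where 50.8% of all genes were: besides Snap25 and Vamp2, Cplx1 rose by 4.88 (29.4-fold), Unc13a by 4.32 (19.9-fold), Stx1a by 3.36 (10.2-fold) and Cplx2 by 1.95 (3.85-fold), and Snap23 fell by 2.75.

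Unc13b was the member not called in that step (difference -0.27, limma adjusted p = 0.256), with 7.18 and 7.67 at NP and 7.26 and 7.04 at TN; it was called over the mean of its probe sets (-0.59, limma adjusted p = 0.00222) and without array a of NP (-0.52, limma adjusted p = 0.0437). Its second probe set was lower in TN (-0.91, limma adjusted p = 0.000461). From ES to NP, 6 of 8 were called, where 38.9% of all genes were: Snap25 rose by 2.05, Cplx2 by 1.26, Unc13b by 0.99 and Vamp2 by 0.66, while Cplx1 fell by 0.62 and Stx1a fell by 0.53. The Stx1a call was lost without array b of ES (limma adjusted p = 0.0942) and without array a of NP (limma adjusted p = 0.0776). Unc13a (0.38, limma adjusted p = 0.0716; called with array weights, 0.0471, and with only the arrays compared, 0.0385) and Snap23 (0.04, limma adjusted p = 0.901) were not called. The Stx1a step was 0.27 in RESTwt as deposited, but -0.08 and -0.07 there after quantile normalization and centring, so no difference in direction between the strains can be read from it; the platforms were not fitted together.

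**Figure D3:**
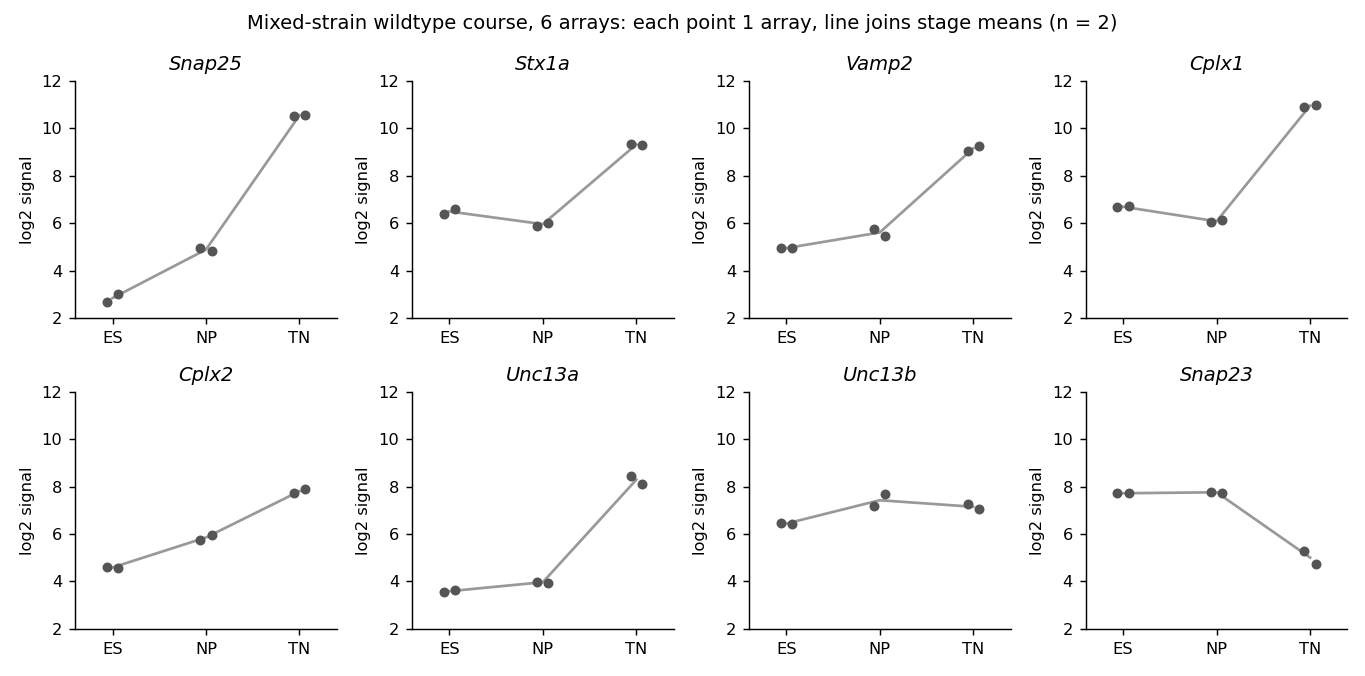
Log2 signal (vertical axis) of the 8 genes at ES, NP and TN in the mixed-strain wildtype cells; each point is 1 of 2 arrays and lines join the means. Snap25 climbs from 2.69 and 3.01 to 10.54 and 10.57, and Snap23 descends from NP to TN.

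Other genes of the exocytosis machinery were read from 4 lists, also chosen with earlier results of these data known. Active zone and priming factors, which dock and prime vesicles at the synapse, had the most calls of the 4 lists at NP. Of 22 measured, 3 were higher and 1 lower in RESTko at ES, 10 higher and 0 lower at NP, and 0 of 22 called at TN, where 2 had an unadjusted p under 0.05 (list medians 0.04, 0.29 and -0.06). Over all genes 5.19% were called higher and 4.05% lower at ES, 4.32% higher and 3.71% lower at NP, and 1.16% in either direction at TN. At ES the presynaptic scaffold gene Pclo was 1.15 higher, the vesicle GTPase gene Rab3c 1.13 higher and the scaffold gene Rims2 0.70 higher, and the lower gene was Rims1 (-0.46), named after its value was seen. At NP Rab3c was 1.72 higher, the vesicle priming factor Cadps 1.15 and Rims2 1.12. From RESTwt NP to RESThet TN 21 of the 22 rose, where 43.2% of all genes did, with a median of 2.53.

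SNARE-binding and disassembly factors had 16 of 18 measured, with 1 higher in RESTko at ES (Stxbp5l, 0.88), 4 higher and 1 lower at NP, and 0 higher and 1 lower at TN. At NP the higher genes were Stxbp5l (0.65), the SNARE-disassembly adaptor Napb (0.60) and, named after their values were seen, Doc2a (0.32) and the SNARE-disassembly ATPase gene Nsf (0.30), and the lower one was Stxbp2 (-0.53), on chromosome 8. At TN the lower one was Stxbp4 (-0.71). The other SNAREs of the plasma membrane and vesicles had 11 of 12 measured, of which 1 was called higher at ES (Snap47, 0.31), and 0 by limma at NP or TN, where 2 and 2 had an unadjusted p under 0.05. Of 20 SNAREs of the endoplasmic reticulum, Golgi and endosomes, 1 was higher (Bet1l, 0.22, named after its value was seen) and 3 lower at ES (Use1 -0.52, Vamp7 -0.43 and Stx17 -0.26), 1 higher (Stx12, 0.29) and 1 lower (Use1, -0.53) at NP, and 0 by limma at TN, where 4 had an unadjusted p under 0.05. Use1 lies on chromosome 8, too. These 3 lists had 1 to 4 genes called at ES, beside 5.19% higher and 4.05% lower over all genes, and nothing particular to a list is read from these counts.

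**Figure D4:**
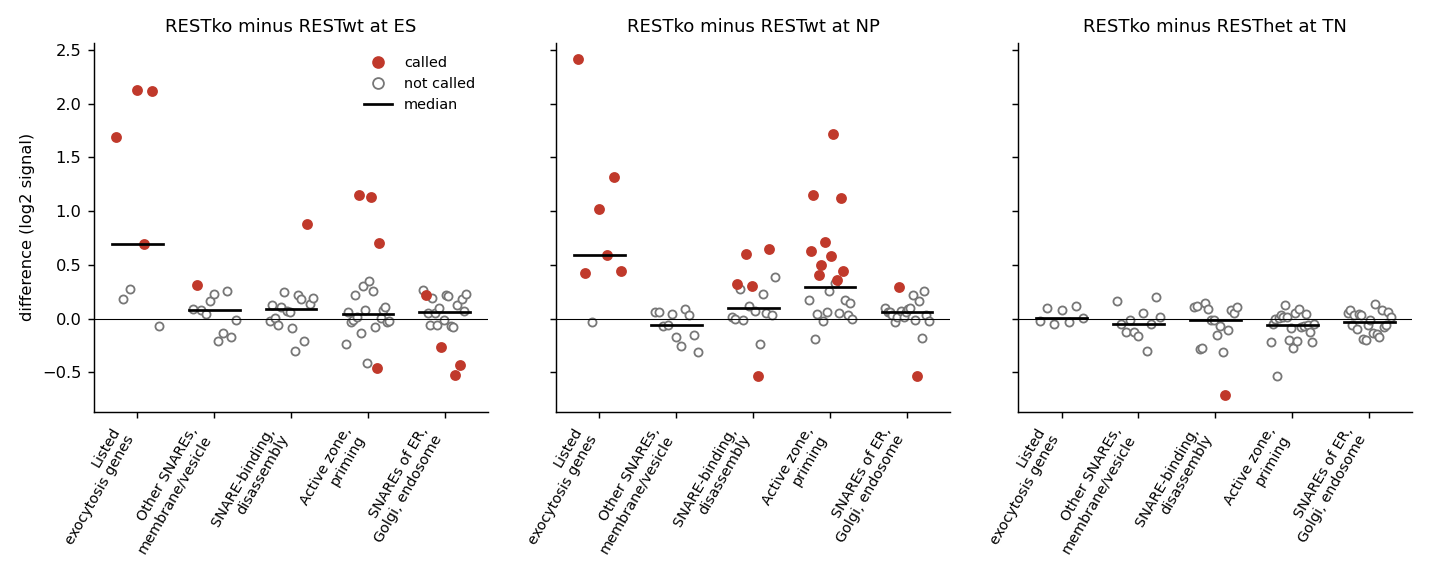
Differences in log2 signal (vertical axis) between arrays labelled RESTko and their controls at ES, NP and TN; each point is a gene of the 7 members or of an exocytosis list, filled where called, and bars mark list medians. The active zone list has a median of 0.29 at NP and -0.06 at TN.

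The genes whose pattern over the 18 arrays was most like that of each member were listed by Pearson r, as a description, since the arrays share stages and platform. Genes with predicted, clone or microRNA names were left out of this ranking. For Snap25 they were Ttll1 (0.994), Sgcb (0.992) and Ddx25 (0.991), and for Stx1a Rgs17 (0.992), Pclo (0.989) and Cacna1b (0.987). For Cplx1 they were Bbs7 (0.989), Hcn3 (0.988) and Scn3b (0.985), and for Cplx2 Carmil3 (0.996), Tub (0.996) and Slc27a4 (0.995). Unc13a was followed by Chga (0.983), Galnt9 (0.977) and Syt4 (0.957), Unc13b by Smug1 (0.992), Chrm4 (0.988) and Irx2 (0.986), and Snap23 by Trim28 (0.997), Dnmt1 (0.994) and Ska3 (0.994).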

How the data were processed

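Gene expression was measured on 24 arrays of 2 platforms. The authors deposited log2 signals per probe set, and the submitters' processing notes name oligo 1.14.0. How background was corrected and arrays were summarized and normalized is not given in the sources used here. No further normalization was applied. A gene was represented by its single-symbol probe set with the highest mean over the arrays of its platform (21789 of 35556 probe sets carried a single symbol on the 18-array platform and 34958 of 45101 on the other).

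Linear models with 1 mean per group used limma 3.58.1 (lmFit, eBayes; R 4.3.3) on all arrays of each platform separately, with Benjamini-Hochberg adjustment over all genes and calls at an adjusted p under 0.05. The fit was tested on simulated data. The members and lists were chosen with earlier results of these data known. The named genes are the 8 members, up to 3 called genes of each list in each genotype comparison (up to 2 in each direction for a stage step), the 3 genes most like each member, and Rest. The alternatives were the mean over probe sets, only the arrays compared, a replicate block, leaving out the dimmest 30% of genes, quantile normalization, centring, array weights, a trended prior variance, subtracting the chromosome median and leaving out each array. Promoters come from RefSeq (GRCm38.p6).

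Replicate letters were checked for pairing: deviations of same-lettered arrays correlated from -0.26 to 0.40 and were not all above 0.1. No label says what a letter marks, so pairing stayed unknown and no block was used.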

Additional observations from a re-analysis of the deposited data

Results flagged for a closer look

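The effect of the REST label differed between stages, by an interaction term in limma, for 6 values. Between ES and NP the difference of Cplx1 grew by 0.72 and that of Snap25 changed by -1.11. Between NP and TN the differences of Cplx1, Unc13a, Snap25 and Stx1a changed by -2.43, -1.21, -0.94 and -0.61. The controls are RESTwt at NP and RESThet at TN.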

How the results depend on the processing

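Of 1158 values of members computed under the alternatives that were fitted, 1115 kept their side of the threshold and direction where called. Calls ended for 25 and were gained for 16, and 2 called values changed sign and were no longer called. Among uncalled values, 24 changed sign. The 2 are the Stx1a step from ES to NP in RESTwt, at -0.08 after quantile normalization (limma adjusted p = 0.446) and -0.07 after centring (limma adjusted p = 0.479). Subtracting the chromosome median gave no test and was counted apart: 3 values shifted by at least 0.1 and 32 by less. With array weights, 3430 genes were called at ES (1842 in the fit as reported) and 1537 for the change from ES to NP (970). With only the arrays compared, 549 were called at NP (1602), 50 at TN (231) and 436 for the change from NP to TN (780), of which 2 were members (4).

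Leaving out each array gave 1190 to 1777 genes at ES, 872 to 1776 at NP, 117 to 205 at TN, 651 to 1136 for the change from ES to NP and 498 to 928 for that from NP to TN. Members called ranged from 4 to 6 at NP, 2 to 3 and 3 to 4 for the changes, and stayed 4 at ES and 0 at TN. Members called in the stage steps ranged from 5 to 7 from ES to NP in RESTwt, 5 to 6 in RESTko and 4 to 6 in the mixed strain, and 7 to 8 from NP to TN in the mixed strain.

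With the replicate block, 1756 genes were called at ES, 1646 at NP and 206 at TN, with 4, 6 and 0 members. Of 18 arrays, 9 correlated best with their own letter, which does not settle whether the letters pair the arrays. Centring moved the share of calls that were higher from 30.7% to 55.2% at TN, from 46.2% to 23.7% for ES to NP in RESTwt and from 48.7% to 24.6% in RESTko. For the change from NP to TN it moved from 35.9% to 53.9%, and to 50.1% after quantile normalization. For NP to TN it moved from 58.9% to 48.5% in RESTko and from 59.1% to 43.7% from RESTwt NP to RESThet TN, and after quantile normalization to 45.0% and 43.9%. Centring moved the median of all genes from -0.07 to -0.41 for ES to NP in RESTwt and from -0.04 to -0.39 in RESTko. The cause of these shifts was not tested. Groups of 3 or 2 arrays limit what can be called.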
